A study of Mus musculus with 4 samples.

Results

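Receptors for chemoattractants and lipid mediators were followed across 4 preparations of BALB/c mouse mast cells. The set was a list of 33 genes for chemokine, sphingosine-1-phosphate, leukotriene, prostaglandin E, oxysterol, complement peptide, histamine and adenosine receptors, plus Gpr35. A member was measured where the platform annotation gave it a probe set with its symbol alone, which held for 31 of the 33 among 22180 genes measured in all. Ltb4r2 and Adora2b were not analysed here. Each group was 1 Affymetrix array, so differences carry no replicate error and no p-value was computed.

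All mast cells came from BALB/c animals. Bone marrow-derived mast cells (BMMCs) came from marrow kept 3 to 4 weeks in 10 ng/ml interleukin-3 plus 10 ng/ml stem cell factor. The control BMMCs then spent 6 days in normal medium. The second culture received TGF-β1, a cytokine, at 5 ng/ml for the same 6 days. The third shared its 6 days with CHO (Chinese hamster ovary) cells displaying mouse Dll1, a Notch ligand, and its mast cells were recovered by c-Kit (CD117) bead selection. Coculture with hamster cells and bead selection therefore cannot be told apart from Dll1 on that array. The fourth preparation was mucosal mast cells of naive mice, taken from small intestinal lamina propria by flow sorting for FcεRI and c-Kit. Tissue digestion, sorting and source cannot be told apart on the intestinal array. The labels do not say how many cultures or mice each array stands for.

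Mast cell precursors leave the bone marrow, travel in blood and settle in tissues, and chemoattractant receptors guide that movement. These receptors span the membrane in several helices and signal through G proteins, whose class helps decide whether a receptor drives migration, raises cyclic AMP or releases calcium. Mature mast cells also use them locally. Prostaglandin E2, adenosine, complement peptides and sphingosine-1-phosphate all raise or damp degranulation through them.

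Levels are log2 probe set signals, which are compared between arrays for 1 gene and never between genes. Olfactory, vomeronasal and taste receptor genes gave each array a background limit, between 5.11 and 5.21. Values under the limit were set to it, and a gene detected on either of 2 arrays was called different where they then stood 2-fold or more apart. Such a fold, where 1 value was set to the limit, is a bound and printed as "at least". Values near the limit are compressed on this scale. As a gauge of spread between probe sets, the standard deviation between log2 differences of 2 probe sets of the same gene was 0.24 for TGF-β1 minus control, 0.34 for Dll1 minus control and 0.48 for intestinal minus control. No member had more than 1 such probe set, so this gauge comes from other genes. Both probe sets of a gene are read on the same arrays from the same RNA. The gauge therefore leaves out spread between arrays, cultures or mice and is not the error of a difference. In bulk RNA, fewer cells of a type and less RNA per cell cannot be told apart.

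The mast cell markers Kit, Fcer1a and Ms4a2 were above background on all 4 arrays, between 9.98 and 12.65. Markers of other cells were also present. On the intestinal array 12 of 13 markers of T and innate lymphoid cells were above background, against 4 of 13 in control BMMCs, and Cd3g read 8.84 in the intestinal cells. The log2 of their summed signal was 8.72 on the control array, 8.62 with TGF-β1, 9.75 with Dll1 and 11.53 in intestinal cells. The same sum for 12 macrophage and dendritic cell markers was 8.84, 8.98, 8.96 and 11.63. For 10 intestinal epithelial markers it was 8.54, 8.90, 8.63 and 10.88, and for 6 B and plasma cell markers 7.46, 7.43, 7.48 and 8.48. Sums for granulocyte lists were highest on the Dll1 array, at 8.10, 8.02, 10.69 and 7.71 for 8 neutrophil markers, 7.58, 7.20, 11.71 and 7.78 for 5 eosinophil markers and 9.88, 9.51, 11.20 and 11.03 for 4 basophil markers. Such sums follow their highest genes. With Dll1, 5 of the 13 T and innate lymphoid markers were above background. Of these, Gzma (7.92), Nkg7 (7.34) and Il7r (7.08) were called higher than in control. Cd3e (4.90), Cd3g (4.51) and Cd8b1 (5.01) were below background with Dll1. In intestinal cells Gzma read 10.33. Mcpt8 of the basophil list read 10.89 with Dll1 and 10.94 in intestinal cells, while Cd200r3 read 8.91 in control and 5.13 in intestinal cells. Of the eosinophil list, Prg2 (11.45) and Epx (8.83) were called higher with Dll1, and Siglecf was below background there (5.01). Ly6g of the neutrophil list was lower with Dll1 than in control (5.35 against 6.40). For 8 fibroblast and feeder cell markers the sums were 8.22, 8.18, 8.96 and 9.32. Among 14 immediate early genes, which respond quickly to handling or stimulation, none was at least 2-fold higher with TGF-β1, 11 were with Dll1 and 13 were in intestinal cells. In intestinal cells 8 of the 10 epithelial, 5 of the 6 B and plasma cell and 10 of the 12 macrophage and dendritic cell markers were above background. Those at least 2-fold above control there included Itgax (11.19), C1qa (7.24) and C1qb (7.21) of macrophages and dendritic cells, and Cdh1 (10.12), Fabp1 (6.73) and Tff3 (6.60) of epithelium. Itgax and Cdh1 weigh most in the intestinal sums of their lists, so these sums do not measure an amount of other cells. By the probe set used, Cdh1 was also above background in the BMMCs, at 6.16 in control, 7.57 with TGF-β1 and 6.32 with Dll1. Its second probe set was below background in the BMMCs, at 4.64, 4.74 and 4.87, and read 5.84 in intestinal cells. Epcam, Vil1, Ms4a1, Cd2, C1qc and Zbtb46 of these lists were below background on all 4 arrays. The part of these lists in the receptor values was not tested.

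Of the 31 measured receptors, 18 were above background in control BMMCs, 16 with TGF-β1, 21 with Dll1 and 23 in intestinal cells. That order rests on the limit: at the 99th percentile of the sensory receptor genes the counts were 12, 12, 17 and 9, with intestinal cells lowest. Across the array as a whole, 52.6%, 50.7%, 55.6% and 54.7% of genes were above background. The same 15 receptors were detected on every array, and 8 were below background on all 4. Above background on at least 1 array were 23 of the 31 receptors (74.2%) and 60.1% of all 22180 genes. The share of all genes detected on every array was not counted. Over the 4 arrays, 14 of the 31 (45.2%) had a highest level at least 2-fold above the lowest, after values under the limit were raised to it. The share among all 22180 genes was 9.12%. Of these 14 members, 6 were highest and 7 were lowest in intestinal cells. Which array was highest or lowest was not counted over all genes, so whether this split is particular to receptors was not tested. The intestinal array also differed most from control over all genes tested, with 11.2% at least 2-fold apart, against 3.42% for Dll1 and 1.4% for TGF-β1.

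**Figure D1:**
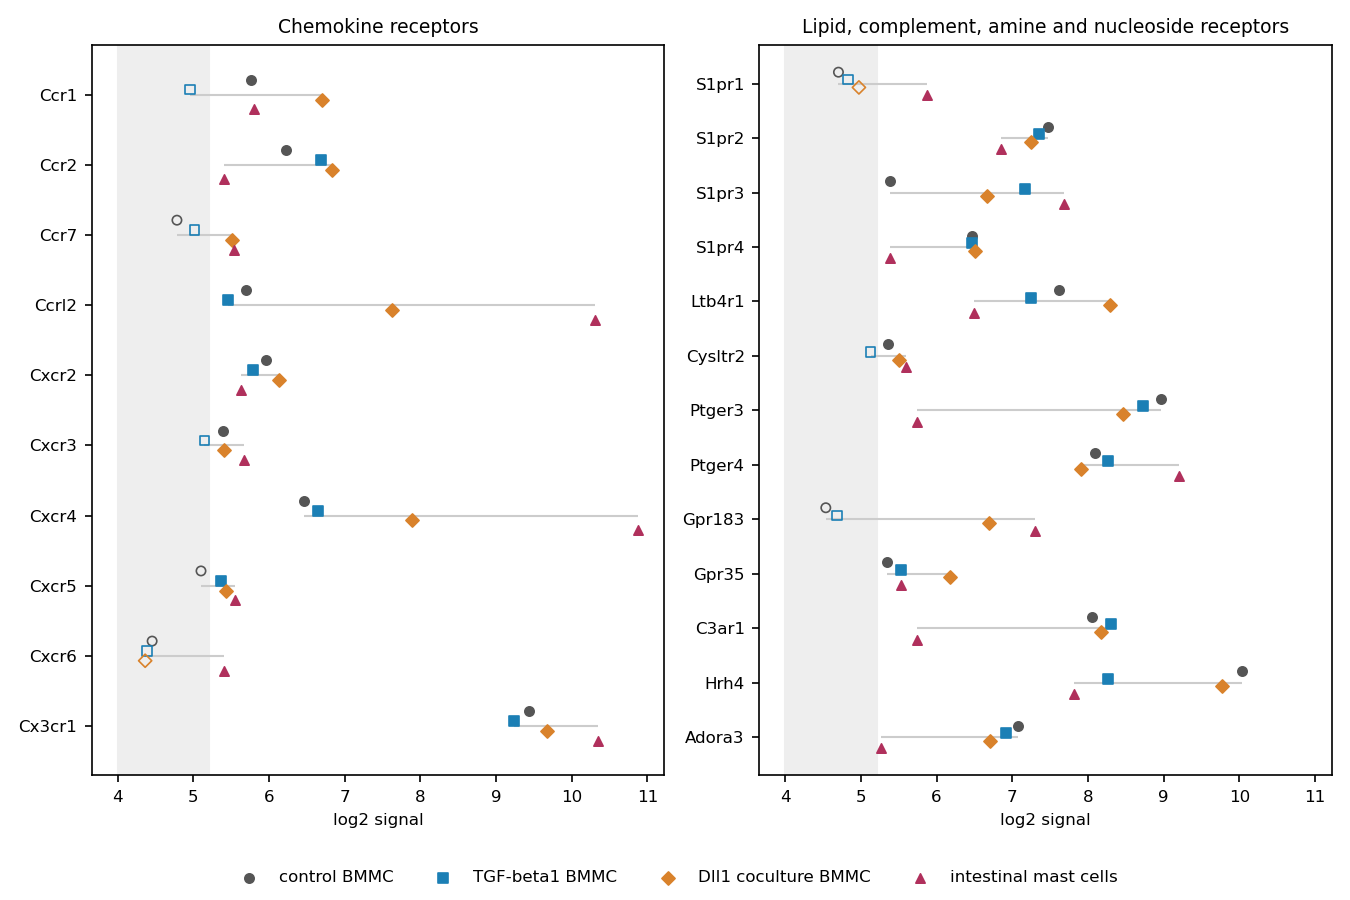
Log2 signal of the 23 receptors above background on at least 1 array, with a marker for each array (1 array per group, no error bar). Open markers lie below the limit of their own array and the grey band ends at the highest of the 4 limits, 5.21; Ccrl2 and Cxcr4 lie far to the right in intestinal cells, while Ptger3 and C3ar1 lie far to the left.

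Promoter windows are shown for receptors chosen, after their values were seen, to stand for the patterns above: S1pr3, at least 2-fold higher on all 3 other arrays than in control, Gpr183 and Cxcr4, higher with Dll1 and in intestinal cells, and C3ar1, lower in intestinal cells. Each is the 250 bases before the RefSeq start in GRCm38.p6, the C57BL/6J reference, read 5′ to 3′ on the strand of the gene. Capitals mark matches, on either strand, to the RBPJ core TGGGAA (RBPJ is the DNA-binding partner of Notch), a SMAD element CAGACA (SMADs carry TGF-β signals), a GATA site AGATAA and an AP-1 site TGACTCA.
S1pr3: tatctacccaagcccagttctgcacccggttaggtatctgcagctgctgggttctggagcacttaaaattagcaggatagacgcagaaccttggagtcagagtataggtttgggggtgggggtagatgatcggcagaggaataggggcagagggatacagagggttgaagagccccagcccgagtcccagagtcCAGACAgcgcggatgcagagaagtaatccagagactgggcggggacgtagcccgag
Gpr183: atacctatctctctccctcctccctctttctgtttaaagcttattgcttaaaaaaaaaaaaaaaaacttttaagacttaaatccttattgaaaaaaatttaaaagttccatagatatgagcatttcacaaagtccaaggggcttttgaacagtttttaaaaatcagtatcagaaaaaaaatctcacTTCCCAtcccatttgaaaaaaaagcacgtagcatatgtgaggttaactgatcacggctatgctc
Cxcr4: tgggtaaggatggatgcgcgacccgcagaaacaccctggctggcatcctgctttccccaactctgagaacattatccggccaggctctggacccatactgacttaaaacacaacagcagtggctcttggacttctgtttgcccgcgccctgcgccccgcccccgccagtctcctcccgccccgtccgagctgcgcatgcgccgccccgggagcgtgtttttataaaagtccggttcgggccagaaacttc
C3ar1: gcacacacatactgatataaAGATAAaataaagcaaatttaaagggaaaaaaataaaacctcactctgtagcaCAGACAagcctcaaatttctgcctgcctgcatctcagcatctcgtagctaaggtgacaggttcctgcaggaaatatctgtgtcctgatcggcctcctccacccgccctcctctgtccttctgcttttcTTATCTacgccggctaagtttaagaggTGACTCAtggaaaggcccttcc

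The S1pr3 window, at chr13:51408368-51408617 on the plus strand, held a SMAD element from -56 to -51 relative to the start, and an RBPJ core lay just beyond it, from 13 to 18 bases past the start. The Gpr183 window, at chr14:121965194-121965443 on the minus strand, held an RBPJ core on the reverse strand from -64 to -59. The Cxcr4 window, at chr1:128592300-128592549 on the minus strand, held none of the 4 motifs. The C3ar1 window, at chr6:122856158-122856407 on the minus strand, held GATA sites from -230 to -225 and from -49 to -44, a SMAD element from -177 to -172 and an AP-1 site from -22 to -16. Over windows of 300 bases that also take in 50 bases past the start, the RBPJ core was in 5 of 26 member promoters of the RefSeq table and in 25.6% of all 32851. The SMAD element was in 4 of 26 against 21.0%, the GATA site in 4 of 26 against 11.2% and the AP-1 site in 3 of 26 against 5.20%. Of the other receptors lower in intestinal cells than in control, Ptger3, S1pr4 and Ltb4r1 held none of the 4 motifs in these windows. Adora3 held a GATA site and an AP-1 site, and Hrh4 was not in the RefSeq table. Ccrl2, higher with Dll1 and in intestinal cells, held none. A match is a run of letters and does not show that a factor binds there.

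Among chemokine receptors, Ccrl2 and Cxcr4 were higher with Dll1 and far higher in intestinal cells. Ccrl2, an atypical receptor that binds chemerin and presents it to other cells, read 5.70 in control BMMCs, 5.45 with TGF-β1, 7.63 with Dll1 and 10.32 in intestinal cells. It was 3.81-fold above control with Dll1 and 24.6-fold in intestinal cells. Cxcr4, the receptor for Cxcl12 that holds precursors in the bone marrow, read 6.47, 6.64, 7.90 and 10.88 in the same order. That is 2.69-fold above control with Dll1 and 21.3-fold in intestinal cells. The control and TGF-β1 arrays lay close together for both genes, the Dll1 array stood between, and the intestinal array was highest. Ranked from the highest difference between intestinal and control among 12722 genes tested, Ccrl2 was at rank 19 and Cxcr4 at rank 25. Immediate early genes were also highest in intestinal cells and next highest with Dll1, with a log2 summed signal of 10.71, 10.81, 13.51 and 14.81, and their part in these differences was not tested.

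Cx3cr1, the fractalkine receptor, was well above background on every array, at 9.44 in control, 9.24 with TGF-β1, 9.68 with Dll1 and 10.35 in intestinal cells. The intestinal value was 0.91 above control on the log2 scale, under 2-fold, and 2.17-fold above TGF-β1. Ccr1, a receptor of Ccl3 and Ccl5, read 5.77, 4.96, 6.70 and 5.80. Its value was highest with Dll1 and below background with TGF-β1, and the Dll1 value was 0.93 above control. Ccr2, the receptor of Ccl2, read 6.22, 6.69, 6.84 and 5.40. The intestinal array was lowest, 2.70-fold below Dll1, and its log2 difference from control was -0.82. The macrophage and dendritic cell marker sum was highest in intestinal cells and the neutrophil marker sum with Dll1. The part of such cells in the Cx3cr1, Ccr1 and Ccr2 values was not tested.

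Another 5 chemokine receptors were above background on at least 1 array. Cxcr2, which binds neutrophil-attracting chemokines, stayed between 5.63 and 6.13 on the 4 arrays. Cxcr3, a receptor of interferon-induced chemokines, stayed between 5.14 and 5.67, and Cxcr5, which binds Cxcl13, between 5.10 and 5.56. Ccr7, which guides cells to lymph nodes, was below background in control (4.78) and with TGF-β1 (5.01), and just above it with Dll1 (5.52) and in intestinal cells (5.54). Cxcr6, the receptor of Cxcl16, was above background only in intestinal cells, where it read 5.40 against 4.46, 4.39 and 4.36. None of these 5 receptors differed by 2-fold from control on any array. Ccr7 and Cxcr6 are also expressed by lymphocytes and dendritic cells, whose markers were higher on the intestinal array.

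S1pr3 was the member at least 2-fold higher than control in all 3 other preparations. It is a receptor for sphingosine-1-phosphate, a lipid kept high in blood and lymph and low inside tissues. It read 5.38 in control, close to background, 7.17 with TGF-β1, 6.67 with Dll1 and 7.68 in intestinal cells. The folds over control were 3.46, 2.44 and 4.92. In the TGF-β1 comparison it ranked 18 from the highest among 12023 genes tested, and it was the 1 measured receptor at least 2-fold higher there. S1pr4, a receptor of blood cells, stood apart in intestinal cells, where it read 5.38 against 6.47 in control, 6.47 with TGF-β1 and 6.50 with Dll1. The intestinal value was 2.13-fold below control. S1pr2, which has been tied to mast cell degranulation, read 7.47, 7.36, 7.25 and 6.84, and no pair of arrays differed by 2-fold. S1pr1, the receptor that draws lymphocytes out of tissues, was below background in control (4.70), with TGF-β1 (4.83) and with Dll1 (4.97), while the intestinal value was 5.87. With the control value raised to the limit, that difference was at least 0.75 on the log2 scale. It passed 2-fold with the limit at the 90th percentile, with no limit and with an offset of 16 subtracted from the linear signal.

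The prostaglandin E receptors differed in opposite directions in intestinal cells. Ptger3, which couples to the inhibitory G protein and favours mast cell activation, read 8.97 in control, 8.73 with TGF-β1, 8.46 with Dll1 and 5.74 in intestinal cells. The BMMC arrays lay within 0.51 of each other and the intestinal value was 9.37-fold below control, at rank 43 from the lowest difference among 12722 genes. Ptger4, which raises cyclic AMP, read 8.09, 8.26, 7.91 and 9.20. The intestinal value was 2.16-fold above control and 2.45-fold above Dll1. Ptger2, the other receptor of this family that raises cyclic AMP, was below background on all 4 arrays.

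Of the leukotriene receptors, Ltb4r1, the high-affinity receptor for leukotriene B4, was lowest in intestinal cells. It read 7.61 in control, 7.24 with TGF-β1, 8.29 with Dll1 and 6.49 in intestinal cells. The Dll1 array was the highest, and the intestinal value was 2.17-fold below control and 3.47-fold below Dll1. The neutrophil marker sum was also highest with Dll1, and the part of such cells in the Ltb4r1 values was not tested. Cysltr2, a receptor for cysteinyl leukotrienes, stayed between 5.13 and 5.60, and Cysltr1 was below background on every array.

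Gpr183 guides cells along gradients of oxysterols made by Ch25h and Cyp7b1. It was below background in control (4.53) and with TGF-β1 (4.68), and read 6.69 with Dll1 and 7.31 in intestinal cells. The Dll1 value was at least 2.98-fold and the intestinal value at least 4.56-fold above control. These 2 arrays differed from each other by 0.61 on the log2 scale, under 2-fold. Gpr183 is also expressed by lymphocytes and dendritic cells, and the part of such cells was not tested. Gpr35, a receptor for tryptophan metabolites, read 5.35, 5.53, 6.18 and 5.53, with the Dll1 array 0.83 above control.

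C3ar1, Adora3 and Hrh4, through which complement, adenosine and histamine act on mast cells, were lower in intestinal cells. C3ar1, the receptor of the complement peptide C3a, read 8.05 in control, 8.30 with TGF-β1, 8.18 with Dll1 and 5.74 in intestinal cells. The BMMC arrays differed by at most 0.25, and the intestinal value was 4.96-fold below control. Adora3, the adenosine receptor that enhances mouse mast cell degranulation, read 7.08, 6.91, 6.70 and 5.26, which put the intestinal value 3.53-fold below control and close to background. Hrh4, a histamine receptor that draws mast cells along histamine gradients, read 10.03, 8.27, 9.77 and 7.82. Both the TGF-β1 and the intestinal array were lower than control, by 3.39-fold and 4.64-fold, while Dll1 minus control was -0.26 on the log2 scale. With TGF-β1, Hrh4 ranked 19 from the lowest among 12023 genes tested.

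The receptors below background on all 4 arrays were Ccr4, Ccr6, Ccr8, Ccr9, Ccr10, Cysltr1, Ptger2 and C5ar1, with values between 4.44 and 4.96. Several of them, such as Ccr9, which directs lymphocytes to the small intestine, have known roles in gut homing. At this array's sensitivity a level below background is a bound and not an absence.

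**Figure D2:**
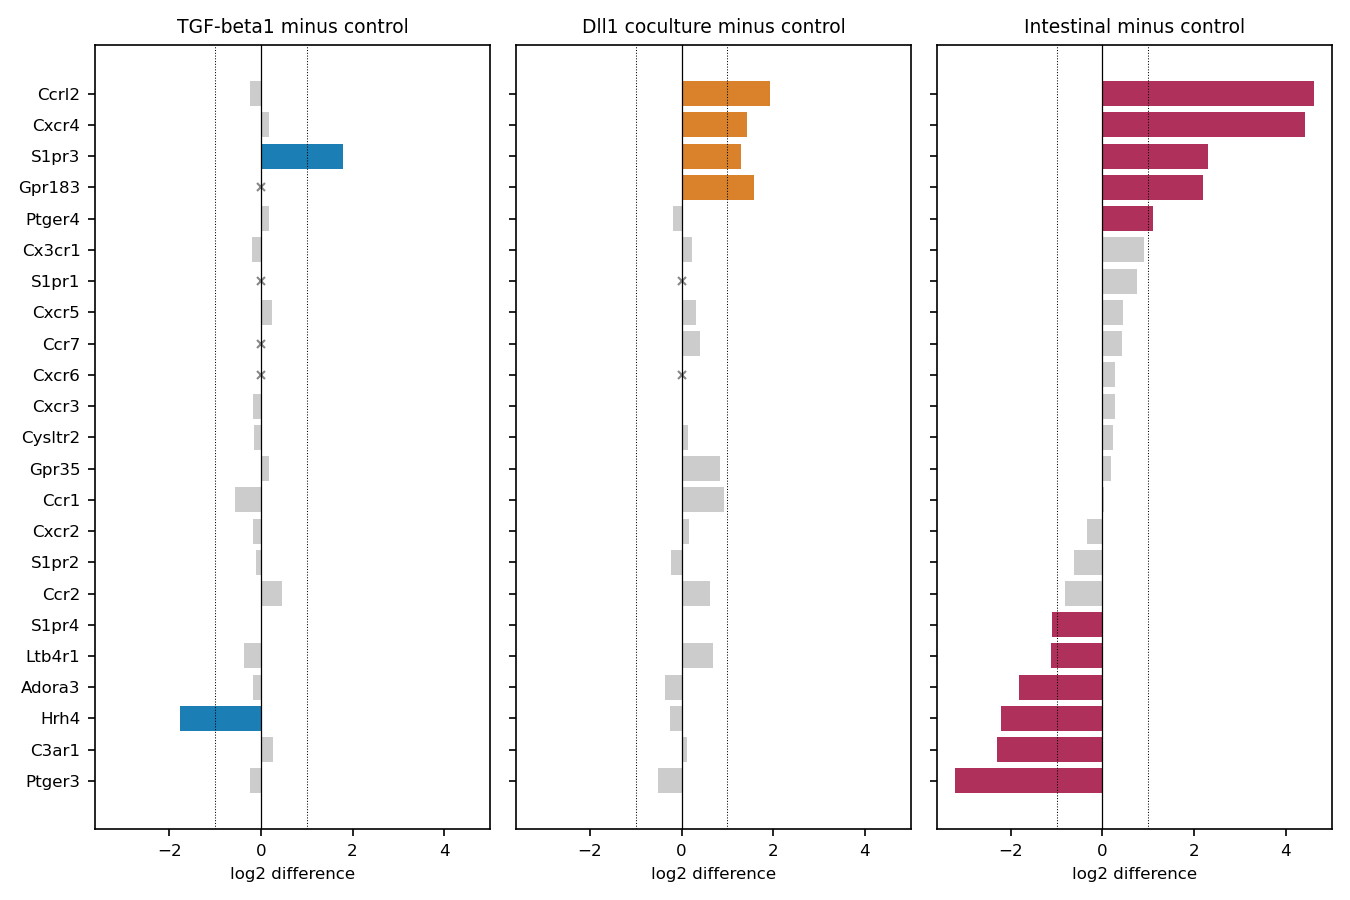
Log2 difference from control of the 23 receptors above background on at least 1 array, ordered by the intestinal difference, with values under the limit raised to it. Coloured bars passed 2-fold (dotted lines), grey bars did not, and crosses mark receptors below background on both arrays; 2 bars are coloured for TGF-β1, 4 for Dll1 and 11 for intestinal cells.

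Of 31 measured receptors, 19 were above background with or without TGF-β1. S1pr3 was at least 2-fold higher (0.507% of all genes tested were) and Hrh4 lower (0.89%), and 1.4% of all 12023 genes tested passed in either direction. The median measured difference over the 31 receptors was 0.0034, and over all genes it was 0.0070.

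With Dll1, 4 receptors were at least 2-fold higher than control and none was lower. They were Ccrl2, Cxcr4, S1pr3 and Gpr183, among 21 receptors above background on either array. Over all 12761 genes tested, 3.42% passed in either direction, 1.64% higher and 1.78% lower. The median measured difference was 0.14 over the receptors and 0.024 over all genes. With the background limit at the 99th percentile of the sensory receptor genes, S1pr3 and Gpr183 were no longer called there. Higher by between 1.5-fold and 2-fold were Ccr1 (0.93), Gpr35 (0.83), Ltb4r1 (0.68) and Ccr2 (0.61). At a 1.5-fold threshold, 628 of all 12761 genes tested were higher and 953 lower.

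In intestinal cells, 11 receptors differed from control by at least 2-fold. Ccrl2, Cxcr4, S1pr3, Gpr183 and Ptger4 were higher, and Ptger3, C3ar1, Hrh4, Adora3, Ltb4r1 and S1pr4 were lower, among 23 receptors above background on either array. The shares of all 12722 genes tested were 11.2% in either direction, 4.47% higher and 6.74% lower. The median measured difference was 0.11 over the receptors and 0.0044 over all genes. The 6 lower receptors had BMMC values between 6.47 and 10.03 on the 3 cultured arrays. The TGF-β1, Dll1 and intestinal comparisons share the control array.

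**Figure D3:**
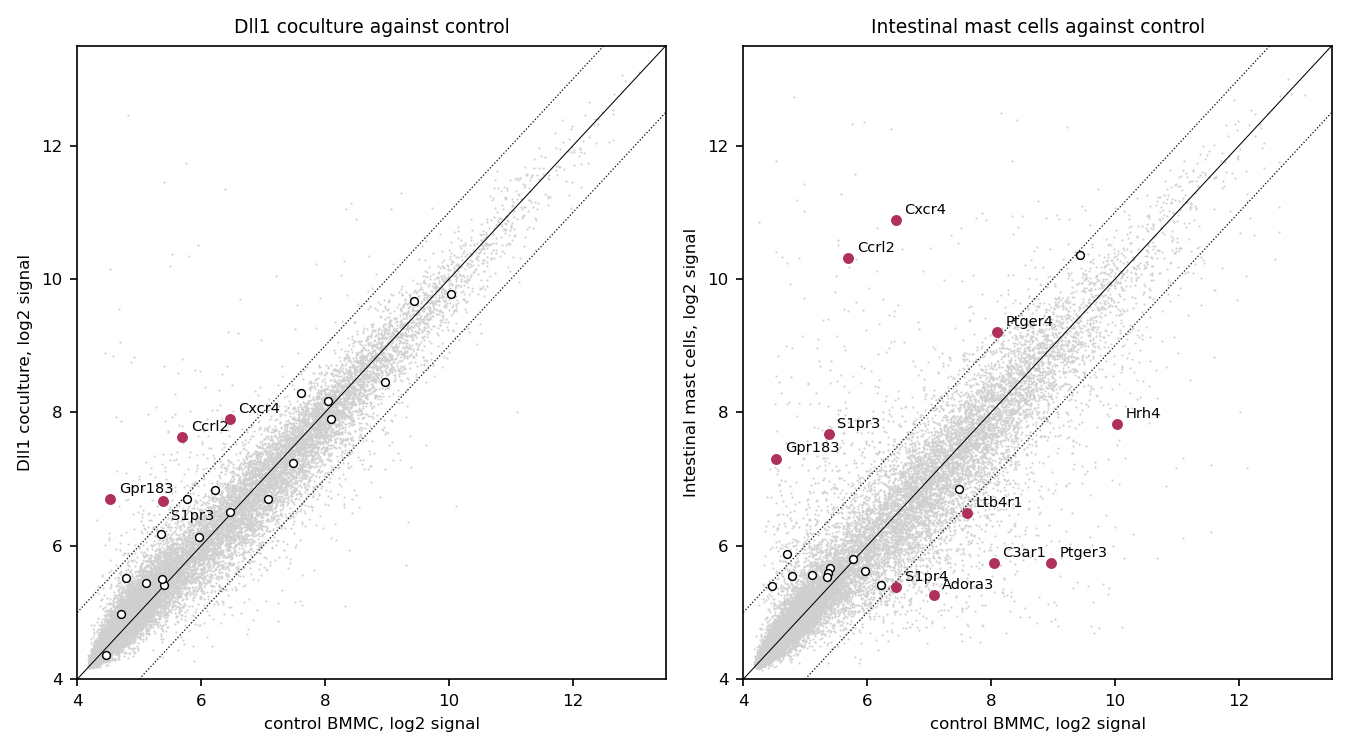
Log2 signal of all 22180 genes (grey points) on the Dll1 array (left) and the intestinal array (right) against the control array, with receptors above background on at least 1 array as circles. Filled circles passed 2-fold (dotted lines) with values under the limit raised to it; 4 are labelled on the left, all above the diagonal, and 11 on the right, 5 above and 6 below it.

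Set directly against TGF-β1, the Dll1 array had 6 receptors at least 2-fold higher and none lower, where 4.09% of all 12650 genes tested passed in either direction, 2.19% higher and 1.9% lower. Ccrl2 was 4.51-fold, Hrh4 2.83-fold, Cxcr4 2.38-fold and Ltb4r1 2.06-fold higher. Ccr1 was at least 2.81-fold and Gpr183 at least 2.79-fold higher. S1pr3, higher than control in both cultures, differed by 0.50 between them, with TGF-β1 the higher.

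Intestinal cells still differed from both treated cultures. Against TGF-β1, 4 receptors were higher (Ccrl2 29.1-fold, Cxcr4 18.9-fold, Gpr183 at least 4.27-fold and Cx3cr1 2.17-fold) and 5 lower (Ptger3 7.95-fold, C3ar1 5.91-fold, Adora3 3.15-fold, Ccr2 2.44-fold and S1pr4 2.13-fold). For Hrh4 the log2 difference from TGF-β1 was -0.45, under 2-fold. Over all genes tested, 8.61% passed in that comparison, 4.06% higher and 4.56% lower. Against Dll1, 4 receptors were higher (Cxcr4 7.92-fold, Ccrl2 6.45-fold, Ptger4 2.45-fold and S1pr3 2.02-fold). Another 7 were lower (Ptger3 6.58-fold, C3ar1 5.42-fold, Hrh4 3.88-fold, Ltb4r1 3.47-fold, Adora3 2.73-fold, Ccr2 2.70-fold and S1pr4 2.18-fold), and 7.69% of all genes tested passed, 3.56% higher and 4.14% lower. Ptger3, C3ar1, Adora3 and S1pr4 were lower in intestinal cells than on each of the 3 cultured arrays. With the 99th percentile limit the calls of S1pr4 were lost against all 3, and those of Adora3 and Ccr2 against both treated cultures. The Dll1 minus TGF-β1 calls of Ccr1 and Gpr183 were also lost under it.

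Of 31 measured related receptors outside the set, 2 were at least 2-fold higher in intestinal cells than in control and 3 were lower, among 21 above background on either array. Over all genes tested in that comparison 4.47% were higher and 6.74% lower. P2ry10, a lysophosphatidylserine receptor, read 6.13, 6.33, 7.46 and 8.39, and Ptafr, the receptor for platelet-activating factor, read 7.31, 6.69, 6.29 and 8.71. Ackr1, which binds chemokines without signalling, read 7.53, 7.60, 6.01 and 4.58, and its intestinal value was below background. The receptors Gpr34 and P2ry14 were 3.85-fold and 3.75-fold lower. Ccr3, the eotaxin receptor, read 5.93, 5.24, 5.58 and 5.44.

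Ligands and the enzymes that make them showed 7 of 49 measured genes higher and 5 lower in intestinal cells than in control, with 37 above background on either array, against 4.47% and 6.74% of all genes tested. Ccl4 was 12.2-fold, Ccl5 10.9-fold and Ccl3 6.68-fold higher, and Ptgs2, the inducible enzyme of prostaglandin synthesis, was at least 10.1-fold higher. Ccl2, the ligand of Ccr2, read 9.60, 7.92, 9.95 and 6.13, lowest in intestinal cells as its receptor was. Cxcl12, the ligand of Cxcr4, was at or under 5.16 on every array. Ptgs2 is also an early response gene and Ccl5 a product of lymphocytes, and the part of handling or other cells in these values was not tested.

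Among 37 measured genes of receptor signalling and desensitisation, 3 were higher and 3 lower in intestinal cells than in control, against 4.47% and 6.74% of all genes tested, and all 37 were above background on either array. Rgs1 and Rgs2, which shorten G protein signals, read 7.52, 7.41, 9.25 and 10.77, and 8.76, 8.26, 9.87 and 11.18. Both were higher with Dll1 than in control and higher again in intestinal cells. The second probe set of Rgs2 kept that order, at 5.98, 5.45, 6.67 and 7.34. Gnaq and Gna11, which encode closely related G protein alpha chains, differed in opposite directions, with Gnaq 3.92-fold higher at 7.32 and Gna11 3.92-fold lower at 6.03 in intestinal cells. Grk5, a kinase that silences active receptors, read 8.96, 8.56, 8.78 and 6.07, 7.40-fold lower in intestinal cells.

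**Figure D4:**
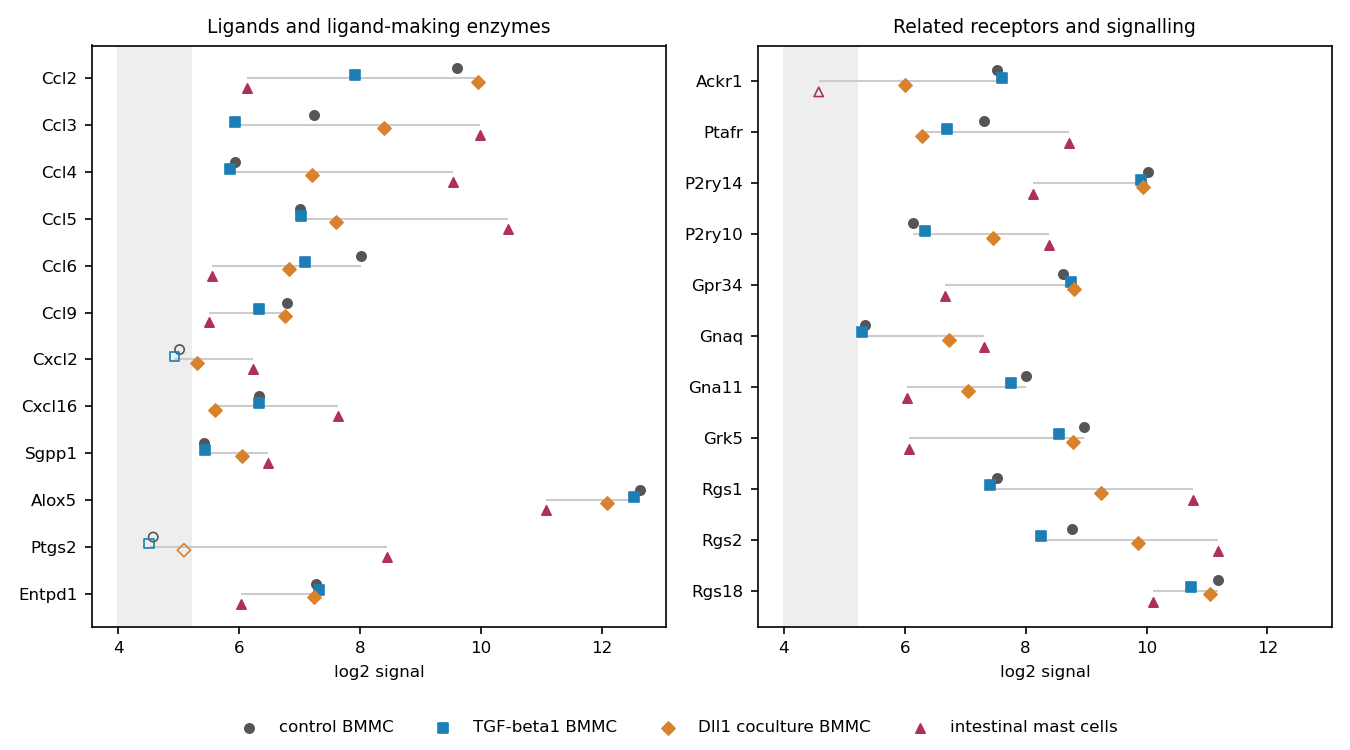
Log2 signal of the 23 ligand, enzyme, related receptor and signalling genes that differed by at least 2-fold between intestinal and control arrays, with a marker for each array (open where below the limit of that array, grey band up to 5.21). These genes are shown because they passed that rule, so their spread is a description; Rgs1, Rgs2, Ccl3 and Ccl4 run from control or TGF-β1 through Dll1 to intestinal cells.

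Chromosome 9 carries 10 of the 33 genes in the RefSeq table. Cx3cr1 and Ccr8 are neighbours there with 0 protein-coding genes between them, and Cx3cr1 read at least 9.24 on each array while Ccr8 was below background on all of them. Ccr9, Cxcr6, Ccr1 and Ccr2 follow each other with 1, 1 and 2 protein-coding genes in between. Ccr9 was below background throughout, Cxcr6 was above it in intestinal cells alone, and Ccr1 and Ccr2 were highest with Dll1.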

How the data were processed

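Each array was hybridised with biotinylated cDNA amplified from 2 ng of RNA (WT Pico reagents), per the labels. The authors deposited log2 values for 33793 probe sets on 4 arrays. How probes were summarised and normalized, and with which genome build, is not given in the sources used here. Sorted values of the arrays spanned 0.055 on average, so no further normalization was applied. Arrays give no read depth, and their number limits the precision.

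Symbols came from the platform annotation, which gave 1 symbol to 23521 probe sets, several to 1814 and none to 8458. Genes with several probe sets used the one with the highest mean. The background limit was the 95th percentile (in alternatives the 90th or 99th, or none) of 1443 sensory receptor probe sets. The size rule ran on all genes, with Python 3.11.15, numpy 2.4.6 and pandas 2.3.3, and was tested on simulated data. Named genes were all members, and a few of the largest differences per list, with Ptgs2, Cxcl12, P2ry14, Ccr3, Gna11 and the markers of other cells named after their values were seen. The members and lists were chosen with earlier results of these data known. Promoters came from a RefSeq table (GRCm38.p6) that held 26 of the 33 members. Alternatives changed the limit, scaling, probe set rule, log offset and fold threshold.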

Additional observations from a re-analysis of the deposited data

How the results depend on the processing

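With 1 array per group, leaving out a replicate was not possible. No paired analysis was possible because each group has a single array and the shared number 1 pairs nothing. The 43 receptor differences of at least 2-fold over the 6 comparisons were recomputed under 6 alternatives. Of the 258 values, 44 moved by more than the probe set gauge and 12 fell under 2-fold. None changed sign, which these alternatives could hardly bring about, and none of them stands in for a replicate. With the 99th percentile as background limit, 11 of the 12 calls were lost, and receptors above background numbered 12 in control, 12 with TGF-β1, 17 with Dll1 and 9 in intestinal cells, against 18, 16, 21 and 23. Under that limit 2 receptors were called between Dll1 and control, not 4, and S1pr3 and Gpr183 were the ones lost. Over all genes in that comparison, 146 of 8841 tested were then higher and 172 lower, against 209 and 227 of 12761. A 1.5-fold threshold called 8 there, all higher, while 628 of all 12761 genes tested were higher and 953 lower. A 3-fold threshold called 1, with 85 of all genes higher and 42 lower. It also called 1 receptor between Dll1 and TGF-β1, against 6, where 107 of 12650 genes were higher and 50 lower. Between intestinal and Dll1 it called 6, against 11, where 165 of 13035 genes were higher and 203 lower. With array medians subtracted, Ltb4r1 was 0.99 higher with Dll1 than TGF-β1, just under 2-fold, and the split over all genes for Dll1 against control went from 209 higher and 227 lower to 175 and 316, with the receptors at 4 and 0 both ways. A second probe set could not be tried, and a mean of probe sets leaves receptors as they are, because none had more than 1. There was 1 array per group, and 8 receptors were below background on all 4.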
